A study of Mus musculus with 10 samples.

Results

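The GIMAP genes encode GTPases of the immunity-associated protein family, and 8 of them were examined here: Gimap1, Gimap3, Gimap4, Gimap5, Gimap6, Gimap7, Gimap8 and Gimap9. They were found by gene symbol among the 55573 Ensembl genes of the count table, and all 8 were present and passed the filter on low counts. RNA had been sequenced from mouse bone marrow B-cells of genotype PAX5-ELN H2B-GFP treated with doxycycline, with a time of 35 days. The 5 GFP high libraries are labelled quiescent and the 5 GFP low libraries proliferating. All 10 libraries therefore carry PAX5-ELN, in which the gene of the B-cell regulator PAX5 is joined to that of elastin (ELN), together with the GFP-tagged histone, and no library without the fusion was compared. The sources used here do not give the promoter that drives the fusion, the age of the mice or any pooling of animals. Total counts per library were 10640894 to 14858520. The members were chosen by symbol, but the family was put forward with its measured fold changes between GFP high and GFP low in view. That difference is therefore given for the members as a description, with no p-value, and nothing is supported with it.

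GIMAP proteins are small GTP-binding proteins related to septins of lymphocytes, many of which sit on intracellular membranes. They are known for their part in the survival and development of T and B cells. Loss of Gimap5 depletes lymphocytes in rats and mice, and loss of Gimap1 removes mature T and B cells. In rodents and humans the genes form one tight cluster, so that they can be compared as neighbours as well as relatives.

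All 8 members lie on chromosome 6 of the mouse build GRCm38 (mm10), between 48647234 and 48770851, a span of 124 kb. In the order Gimap8, Gimap9, Gimap4, Gimap6, Gimap7, Gimap1, Gimap5 and Gimap3, the 6 members other than Gimap6 and Gimap3 are on the plus strand. Gimap8 (ENSMUSG00000064262, 48647234 to 48660875) has the longest coding sequence, 2064 bases, and the other 7 have 873 to 984 bases. Gimap3 (ENSMUSG00000039264, 48764464 to 48770851) and Gimap5 (ENSMUSG00000043505, 48746197 to 48754210) are the closest relatives, with 90.4% identical bases over their aligned coding sequences. The 20 other pairs among the 7 shorter members had 56.1% to 68.3%. A 200-base stretch from the coding sequences of this pair, around their longest identical run of 140 bases, is printed because counting must tell the 2 genes apart by such differences. It covers coding bases 145 to 344 of Gimap3 and 157 to 356 of Gimap5 in the GENCODE M21 transcripts, and capitals mark the 4 bases that differ.
Gimap3: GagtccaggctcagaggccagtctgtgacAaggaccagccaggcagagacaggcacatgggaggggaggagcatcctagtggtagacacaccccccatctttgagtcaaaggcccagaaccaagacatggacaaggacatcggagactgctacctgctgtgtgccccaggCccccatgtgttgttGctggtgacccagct
Gimap5: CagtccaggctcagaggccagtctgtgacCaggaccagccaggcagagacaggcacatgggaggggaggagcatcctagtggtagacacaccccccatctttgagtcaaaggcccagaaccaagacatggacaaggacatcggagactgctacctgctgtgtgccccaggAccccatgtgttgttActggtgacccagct

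Reads that fall within such a run cannot be placed by sequence alone. Of all 50-base words in the annotated transcripts, 8.15% of those of Gimap3 and 6.84% of those of Gimap5 also occurred in another gene. For Gimap4, Gimap8 and Gimap9 the number was 0, and for Gimap6 and Gimap7 the share was 0.17% and 1.39%. Gimap1 had the highest share, 35.5%, most of it shared with the antisense gene Gimap1os, which covers 36% of its exonic bases on the other strand. The sources used here do not say whether strand was used in counting or what was done with multi-mapping reads. The values of Gimap1, Gimap3 and Gimap5 are uncertain to that extent, since reads of Gimap1 and of its antisense gene cannot be told apart without strand.

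The 250 bases before the annotated start are shown for 4 members that span the range of differences between the groups, Gimap4 and Gimap3 at the high end, the close relative Gimap5, and Gimap7 at the low end. They come from RefSeq on GRCm38.p6, where all 8 symbols matched, Gimap8 with 2 start sites. The windows are chr6:48684328-48684577, plus strand for Gimap4, chr6:48770852-48771101, minus strand for Gimap3, chr6:48745947-48746196, plus strand for Gimap5 and chr6:48718371-48718620, plus strand for Gimap7. Capitals mark every match to 7 short motifs searched on both strands.
Gimap4: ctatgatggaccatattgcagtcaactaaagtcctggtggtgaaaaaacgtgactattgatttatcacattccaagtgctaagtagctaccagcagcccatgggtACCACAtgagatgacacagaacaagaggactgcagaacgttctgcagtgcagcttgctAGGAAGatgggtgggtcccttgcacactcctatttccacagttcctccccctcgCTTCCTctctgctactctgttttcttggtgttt
Gimap3: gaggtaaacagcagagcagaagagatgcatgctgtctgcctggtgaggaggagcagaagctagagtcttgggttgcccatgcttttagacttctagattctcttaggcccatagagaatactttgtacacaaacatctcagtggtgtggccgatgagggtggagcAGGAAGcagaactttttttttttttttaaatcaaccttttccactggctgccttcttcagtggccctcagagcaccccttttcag
Gimap5: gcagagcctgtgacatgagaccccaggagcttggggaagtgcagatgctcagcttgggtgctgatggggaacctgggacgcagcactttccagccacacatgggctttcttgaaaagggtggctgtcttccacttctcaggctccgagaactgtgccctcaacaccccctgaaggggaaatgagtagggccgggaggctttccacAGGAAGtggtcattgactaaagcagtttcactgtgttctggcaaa
Gimap7: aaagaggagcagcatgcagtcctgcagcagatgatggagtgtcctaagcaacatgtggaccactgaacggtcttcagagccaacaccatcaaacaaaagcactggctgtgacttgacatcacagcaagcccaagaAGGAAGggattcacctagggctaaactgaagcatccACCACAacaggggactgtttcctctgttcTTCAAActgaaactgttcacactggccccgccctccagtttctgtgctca

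The motif AGGAAG, a form of the site recognised by ETS factors, was found before 7 of the 8 members, the exception being Gimap6. Among all 32851 windows of this length 29.5% held it. Gimap8 counts through start site 2 only. The Gimap6 window holds CGGAAG, which differs from the motif in its leading base alone and was not searched for. TGTGGT, a RUNX core, was found before Gimap1, Gimap4 and Gimap7 and in 14% of all windows. TTTGAA, the CHR element of cell cycle genes, was found before Gimap7 and Gimap9 (16% of all windows). CAGGTG, an E2A site, was found before Gimap9 (17.2%), and TATAAA before Gimap6 (12.4%). TGGGAA, a form of the Ikaros core, and the interferon-stimulated response element were found before 0 members, against 21.6% and 2.98% of all windows. The windows of Gimap5, Gimap6 and Gimap9 hold GGGGAA, which differs from TGGGAA in its leading base alone and was not searched for. In the windows printed, Gimap3 and Gimap5 each hold 1 match, AGGAAG, at 85 to 80 bases before the start in Gimap3 and at 45 to 40 bases in Gimap5. Gimap4 holds AGGAAG on both strands, at 87 to 82 and at 33 to 28 bases, and TGTGGT at 145 to 140 bases. A match is a run of letters and not a measured binding site.

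Reads from the family were more abundant in GFP high. The summed level of the 8 members was 2198, 1967, 1981, 2074 and 2179 CPM (read counts scaled to library size with TMM factors) in GFP high libraries 1 to 5. In GFP low libraries 1 to 5 it was 1001, 815, 831, 1150.0 and 1099 CPM. The lowest GFP high library was above the highest GFP low library. Every member except Gimap7 had a higher mean CPM in GFP high, and 6 passed the threshold of the test across all genes (quasi-likelihood test of edgeR, p under 0.05 after Benjamini-Hochberg adjustment). Those 6 were Gimap3, Gimap4, Gimap5, Gimap6, Gimap8 and Gimap9, and 0 members were lower past the threshold. Of all 12772 genes tested, 12.0% were called higher and 15.4% lower. With same-numbered libraries paired (replicate block), 7 members were called higher and 0 lower, where 41.8% of all genes were called, 20.7% higher and 21.0% lower. Gimap3, Gimap4 and Gimap5 were both called and at least 2-fold higher, as were 3.05% of all genes tested. The median log2 fold change, GFP high over GFP low, was 0.96 over the members and 0.03 over all genes tested. For the same 6 members the lowest GFP high library exceeded the highest GFP low library in CPM, which was so for 7.92% of all genes tested. The opposite, with GFP high below GFP low, was found for 0 members and 12.6% of all genes tested. In bulk RNA, fewer cells of a type and less RNA per cell cannot be told apart.

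**Figure D1:**
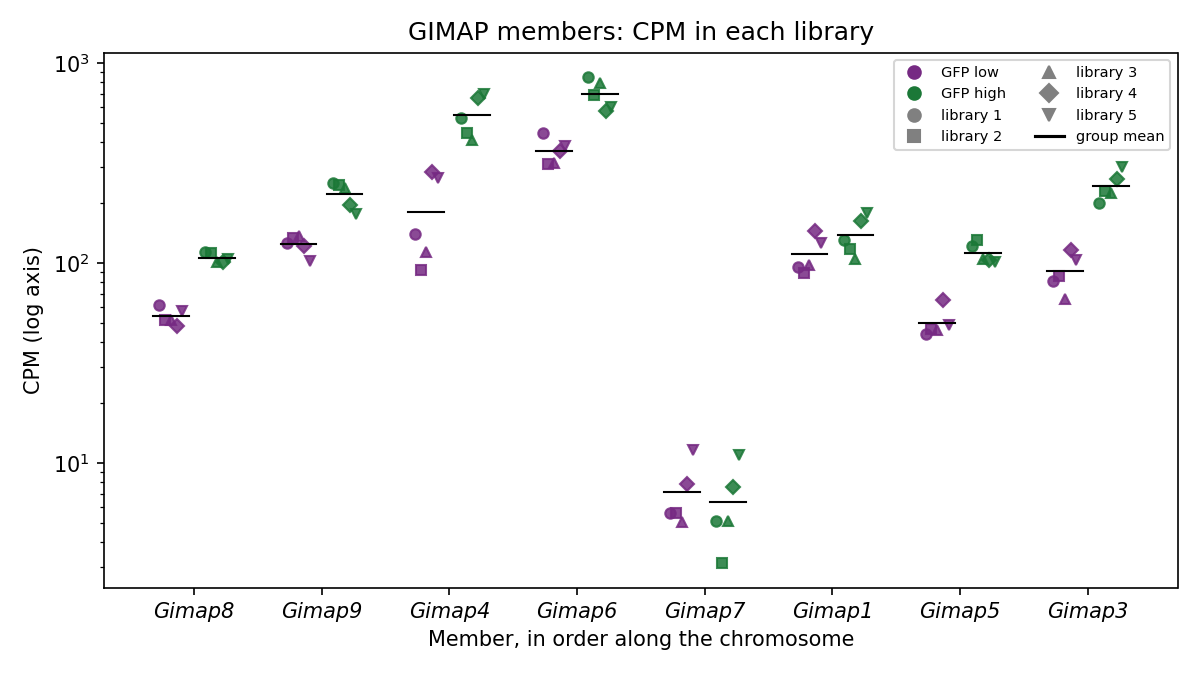
CPM of each member on a log axis, members in their order along the chromosome. Each point is 1 library, GFP low in purple and GFP high in green, its shape giving the library number, and the black bar is the group mean (5 libraries each). The groups are apart for 6 members, overlap for Gimap1 and Gimap7, and Gimap7 lies far below the others.

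Gimap4 (ENSMUSG00000054435, 48684549 to 48692060), a member known from maturing thymocytes and B cells and linked to the execution of cell death in T cells, had the highest fitted fold change over all 10 libraries. In libraries 4 and 5 alone it was below Gimap3 (1.29 against 1.35 on the log2 scale), and whether these members differ was not tested. It had 532, 444, 410.0, 670.0 and 702 CPM in GFP high libraries 1 to 5 and 139, 91.7, 113, 286 and 267 CPM in GFP low libraries 1 to 5. Libraries 4 and 5 were the highest of each group, and the groups did not overlap. Its log2 fold change was 1.62 ± 0.30 (SE, n = 5 each), a 3.07-fold difference. Gimap4 was also the member with the largest relative spread within GFP low, with a coefficient of variation of 50.4%, against 23.8% in GFP high.

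The related pair Gimap3 and Gimap5 followed, both of which encode proteins with a membrane anchor at the end of the chain and are linked to lymphocyte survival. Gimap3 had 199, 228, 223, 264 and 303 CPM in GFP high and 81.4, 86.2, 66.1, 116 and 103 CPM in GFP low, a log2 fold change of 1.43 ± 0.15. Gimap5 had 122, 130.4, 105, 103 and 101 CPM in GFP high and 44.1, 46.8, 46.2, 65.0 and 48.9 CPM in GFP low, a log2 fold change of 1.16 ± 0.12. In neither gene did the groups overlap. Library 4 of GFP low stood above the other 4 for Gimap5.

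Gimap6, Gimap8 and Gimap9 were nearly 2-fold higher in GFP high. Gimap6 (ENSMUSG00000047867, 48701582 to 48708225), whose protein binds the autophagy protein GABARAPL2, had 847, 687, 795, 573 and 604 CPM in GFP high. In GFP low it had 447, 312, 315, 361 and 382 CPM (log2 fold change 0.95 ± 0.13). Gimap8, the longest member, with several GTP-binding domains, had 113, 112, 101, 101 and 105 CPM in GFP high and 61.6, 51.7, 52.0, 48.4 and 57.5 CPM in GFP low (0.97 ± 0.09). It had the smallest relative spread of all members, with coefficients of variation of 5.47% and 9.67%. Gimap9 (ENSMUSG00000051124, 48676129 to 48679114) had 249.9, 246, 238, 195 and 176 CPM in GFP high and 126, 133, 136, 122 and 102 CPM in GFP low (0.84 ± 0.12).

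Gimap1 and Gimap7, which lie next to each other between Gimap6 and Gimap5, did not share the size of this difference. Gimap1 (ENSMUSG00000090019, 48739054 to 48743795), needed for mature lymphocytes, had 129.5, 117, 104, 161 and 178 CPM in GFP high and 95.2, 89.2, 97.7, 144 and 126 CPM in GFP low. The groups overlapped, and its log2 fold change of 0.32 ± 0.17 did not pass the threshold. It passed when same-numbered libraries were paired (0.32 ± 0.08, SE, with the replicate block), and also in libraries 1 to 3 alone (0.34) and in libraries 4 and 5 alone (0.31). Gimap7 (ENSMUSG00000043931, 48718621 to 48724636), whose protein stimulates GTP hydrolysis by pairing with other GIMAP proteins, had the fewest counts. It had 70, 36, 73, 97 and 126 counts in GFP high and 78, 79, 52, 100 and 171 counts in GFP low, or 3.14 to 10.9 CPM and 5.04 to 11.6 CPM. Its log2 fold change was -0.17 ± 0.34, and it was 0.01 when library 2 of GFP high was left out and 0.08 when library 5 of GFP low was left out. No direction is given for Gimap7, whose coefficient of variation was 46.9% in GFP high and 38.0% in GFP low. With the replicate block its value was -0.21 ± 0.21.

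**Figure D2:**
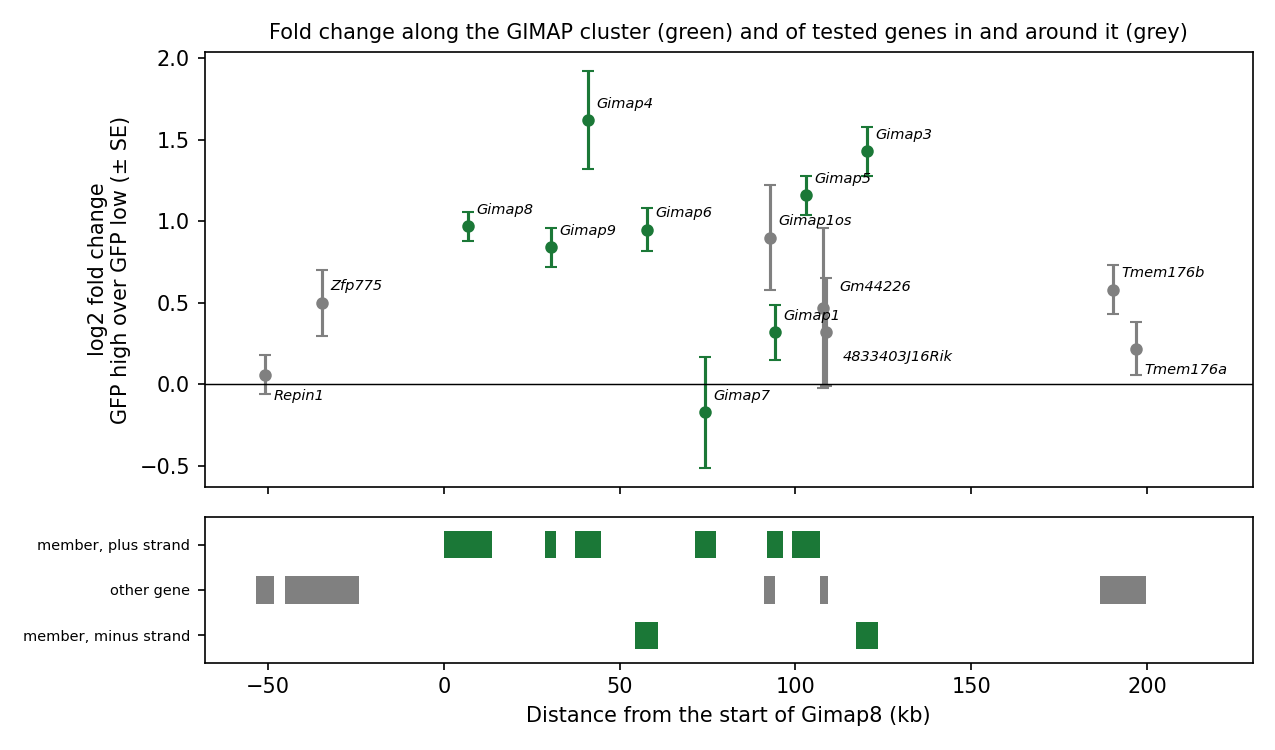
Log2 fold change (GFP high over GFP low, ± SE, edgeR) of the 8 members (green) and of the tested genes in and around the cluster (grey), plotted at each gene's midpoint in kb from the start of Gimap8, with the gene bodies below. Gimap7 and Gimap1 sit at -0.17 and 0.32 between members at 0.84 to 1.62.

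Some neighbouring members had unlike values and others had values close to each other, and differences between members were not tested. From Gimap8 to Gimap6 the 4 members had log2 fold changes of 0.97, 0.84, 1.62 and 0.95, then Gimap7 and Gimap1 had -0.17 and 0.32, and Gimap5 and Gimap3 had 1.16 and 1.43. Of the 6 nearest protein-coding genes on each side and 5 other annotated genes inside the cluster, 7 of 17 were tested. One of them, Tmem176b, which encodes a membrane protein of immune cells, rose (0.58 ± 0.15, edgeR adjusted p = 0.0134, 213 ± 38.3 against 142 ± 28.6 CPM, SD, n = 5 each). Its neighbour Tmem176a had 0.22 ± 0.16 (edgeR adjusted p = 0.341). On the other side, the nearest tested gene, the zinc finger gene Zfp775, had 0.50 ± 0.20 (edgeR adjusted p = 0.0837, and adjusted p = 0.0288 with the replicate block). Inside the cluster, the antisense gene Gimap1os had 77, 80, 83, 101 and 118 counts in GFP high and 45, 31, 26, 69 and 91 counts in GFP low. The fitted log2 fold change was 0.90 ± 0.32 (edgeR adjusted p = 0.0553, and 0.97 with adjusted p = 0.00699 with the replicate block). Gm28053, a gene model that spans from Gimap7 to Gimap5 on the same strand, had 0 to 11 counts per library and was not tested. It covers 3.48%, 6.44% and 3.69% of the exonic bases of Gimap7, Gimap1 and Gimap5, so reads there cannot be told apart.

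Levels between members were compared per kb of exonic bases. In GFP high the order was Gimap4 (300.2 ± 71.3 CPM per kb, SD, n = 5), Gimap6 (201 ± 33.9), Gimap9 (135 ± 20.3), Gimap3 (94.5 ± 15.7), Gimap1 (44.9 ± 10), Gimap8 (28.7 ± 1.57), Gimap5 (27.1 ± 3.21) and Gimap7 (2.74 ± 1.28). The ranges over libraries overlapped between the neighbours Gimap4 and Gimap6, Gimap9 and Gimap3, and Gimap8 and Gimap5. The other 4 neighbouring pairs did not overlap. In GFP low the order was Gimap6 (104 ± 16 CPM per kb), Gimap4 (97.7 ± 49.3), Gimap9 (75.3 ± 8.09), Gimap1 (35.9 ± 7.66), Gimap3 (35.1 ± 7.51), Gimap8 (14.7 ± 1.42), Gimap5 (12.1 ± 2.04) and Gimap7 (3.07 ± 1.17). Here Gimap6, Gimap4 and Gimap9 overlapped in turn, as did Gimap1 with Gimap3 and Gimap8 with Gimap5. With the longest coding transcript as the length, Gimap5 stood above Gimap8 (57.5 against 33.7 CPM per kb in GFP high), and 6 of 8 ranks in GFP high were the same. Per kb of exonic bases, Gimap3 was above its close relative Gimap5 in every library, at 94.5 against 27.1 CPM per kb in GFP high and 35.1 against 12.1 in GFP low. The size of this gap depended on the length used. With the longest coding transcript the means were 113 against 57.5 CPM per kb in GFP high and 42.2 against 25.7 in GFP low.

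The mixture of members differed between the groups as well. Per kb, Gimap4 made up 35.7% ± 6.48 of the family total in GFP high, against 24.7% ± 8.56 (SD, n = 5 each) in GFP low. The groups overlapped, but within same-numbered pairs the share was higher in GFP high in 5 of 5. The share of Gimap1 was 5.35% ± 0.896 in GFP high, against 9.48% ± 0.746 for GFP low, with no overlap between the groups. Gimap6 had 24.2% ± 4.84 and 27.9% ± 4.38, lower in GFP high in every pair except pair 3 (29.5% against 28.2%). Gimap9 had 16.3% ± 3.22 and 20.6% ± 5.36, lower in GFP high in 5 of 5 pairs. Gimap5 held nearly the same share, 3.27% ± 0.516 and 3.23% ± 0.405. These shares come from the contrast that was already known and are a description. They rest on exonic length, and shares with the longest coding transcript were not computed.

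**Figure D3:**
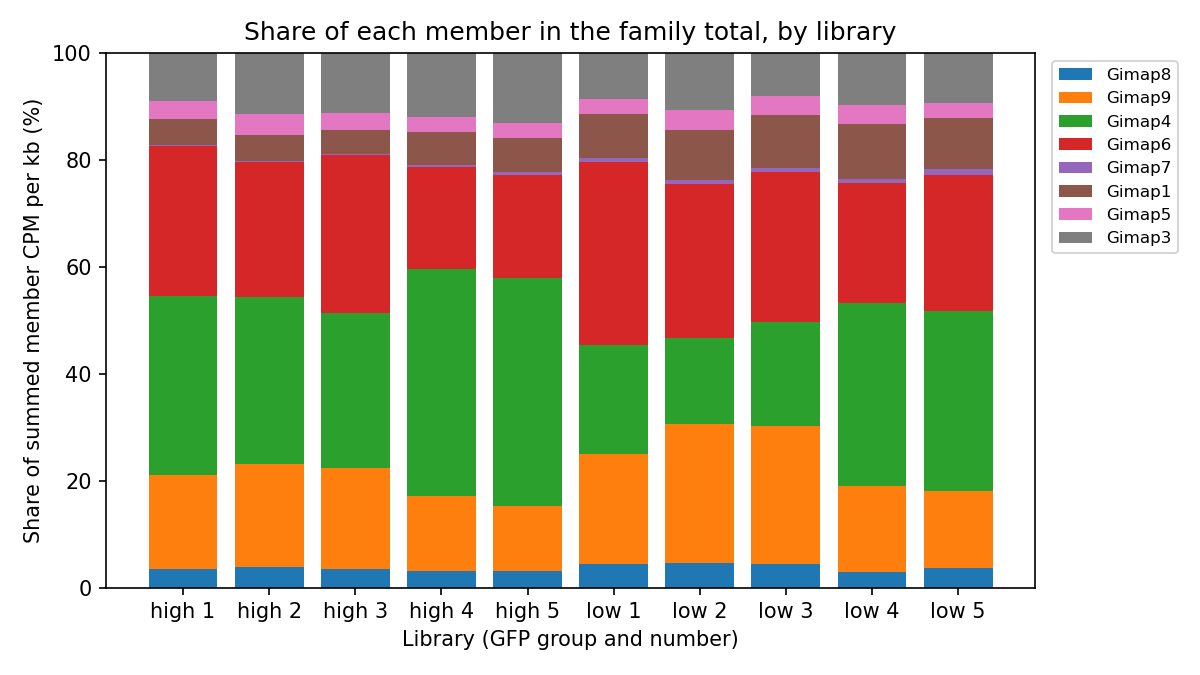
Share of each member in the summed CPM per kb of the family, 1 bar per library, in percent. Gimap4 (green) takes 29.0% to 42.7% of the GFP high bars and 16.1% to 34.1% of the GFP low bars, and is largest in libraries 4 and 5 of each group.

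Libraries with the same number varied together. Over all tested genes, the deviations from the group means correlated between same-numbered libraries at 0.248 to 0.353, and each GFP high library matched its own number best. Differences within such pairs were positive in 5 of 5 pairs for every member other than Gimap7, which was higher in 1 pair. Of all tested genes 22.9% were higher in all 5 pairs. For Gimap4 the differences in log2 CPM were 1.93, 2.27, 1.85, 1.23 and 1.39 in pairs 1 to 5, so that pairs 4 and 5 had the smallest. For Gimap6 they were 0.92, 1.14, 1.34, 0.67 and 0.66, and for Gimap5 1.47, 1.48, 1.18, 0.66 and 1.04, again lowest in pairs 4 and 5. Gimap9 had its lowest values in the same pairs, over a narrower range (0.99, 0.89, 0.81, 0.68 and 0.79). Gimap8 differed little between pairs, and pairs 4 and 5 were not the lowest together (0.88, 1.11, 0.96, 1.05 and 0.87). Gimap3 had 1.29, 1.41, 1.75, 1.19 and 1.55, and Gimap1 had 0.44, 0.38, 0.09, 0.16 and 0.50. For Gimap7 the values were -0.13, -0.80, 0.02, -0.06 and -0.08, with pair 2 alone far from 0.

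**Figure D4:**
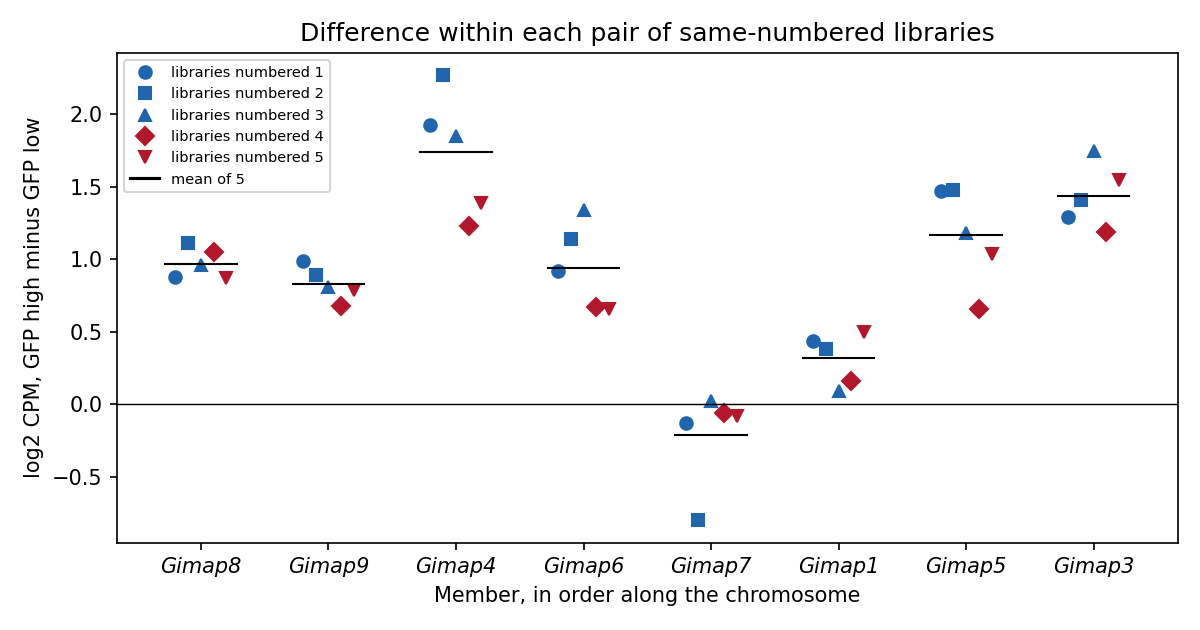
Difference in log2 CPM, GFP high minus GFP low, within each pair of same-numbered libraries (pairs 1 to 3 blue, 4 and 5 red), with the mean of the 5 pairs as a black bar. For Gimap4, Gimap5, Gimap6 and Gimap9 both red points lie below all blue points, and Gimap7 scatters around 0.

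Apart from the sort, the members fell into different patterns across library numbers, a comparison made after the values were seen. In both groups, libraries 4 and 5 were above libraries 1 to 3 without overlap for Gimap1, Gimap3, Gimap4 and Gimap7. In GFP low, Gimap4 had 277 CPM on average in libraries 4 and 5 and 115 CPM in libraries 1 to 3, a log2 difference of 1.29. In GFP high it had 686 against 462 CPM (0.58). Gimap7 had 9.72 against 5.40 CPM in GFP low (0.80) and 9.23 against 4.45 CPM in GFP high (1.04). Gimap9 went the other way, with libraries 4 and 5 below libraries 1 to 3 in GFP high (186 against 245 CPM) and in GFP low (112 against 131 CPM). Of all tested genes, 11.7% were above in both groups in this way and 11.5% below. Gimap8 hardly differed (-0.08 in GFP high and -0.06 in GFP low on the log2 scale). Gimap6 was lower in libraries 4 and 5 of GFP high (588 against 777 CPM), while its ranges overlapped in GFP low (372 against 358 CPM). Gimap5 moved in opposite directions without overlap, lower in libraries 4 and 5 of GFP high (102 against 119 CPM, -0.22) and higher in those of GFP low (57.0 against 45.7 CPM, 0.30). The gaps were narrow, with nearest values of 103 and 105 CPM in GFP high and 48.9 and 46.8 CPM in GFP low. Library 4 of GFP low stood apart at 65.0 CPM. The share of all tested genes with such opposite moves was not computed. The labels give no batch, date or animal for the library numbers, and what they stand for was not tested.

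The same split shows in correlations between members. Over the 10 libraries, deviations of log2 CPM from the group means correlated at 0.74 to 0.90 among Gimap1, Gimap3, Gimap4 and Gimap7. Gimap9 correlated with these 4 at -0.71 to -0.93, although it is the next neighbour of Gimap4 on the same strand. Gimap6 and Gimap8 correlated at 0.61. The close relatives Gimap3 and Gimap5 correlated at 0.24 only, while with the group difference kept in they reached 0.93. These values are descriptions over 10 libraries that share numbers across the groups.

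**Figure D5:**
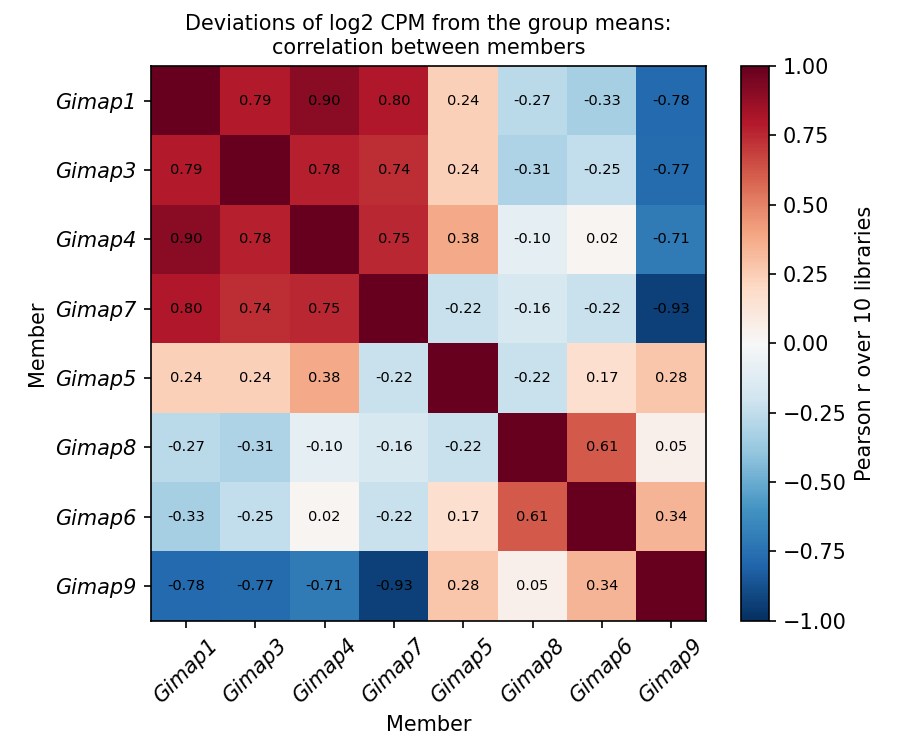
Pearson correlation between members of the deviations of log2 CPM from the group means, over 10 libraries, red positive and blue negative. Gimap1, Gimap3, Gimap4 and Gimap7 form a block at 0.74 to 0.90 that is set against Gimap9 at -0.71 to -0.93.

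Among 9455 protein-coding genes with at least 5 CPM on average, the 5 whose log2 CPM followed the mean of the members most closely over the 10 libraries were Prkx, Ripor2, Smim19, Hexa and Lmo2. Their Pearson correlations were 0.991, 0.989, 0.988, 0.985 and 0.983. Prkx encodes a protein kinase, and its log2 fold change was 0.57 ± 0.09. Ripor2, the gene of an inhibitor of the GTPase RhoA, had 0.97 ± 0.12. Hexa, a lysosomal hexosaminidase gene, had 0.46 ± 0.08, and Lmo2, the gene of an adaptor of early blood transcription factors, had 0.87 ± 0.11. With the deviations from the group means, which leave the sort out, the closest genes were Ppip5k2 (0.978), Pigs (0.973), Smim19 (0.972), Xkr8 (0.969) and Kctd13 (0.968). Smim19 is the gene in both sets. The members had no common pattern in these deviations, with Gimap9 at -0.71 to -0.93 against Gimap1, Gimap3, Gimap4 and Gimap7. Which members their mean followed was not tested. These genes were picked as the highest of many, so their correlations and fold changes are a description.

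GIMAP proteins have been linked to the BCL2 family of death regulators, to the ATG8 proteins of autophagy and to the kinase GSK3, so 16 genes of these groups were set beside the members. All 16 were tested, of which 2 rose, 2 fell and 12 did not pass (27.5% of all tested genes were called in either direction). Their median log2 fold change was 0.13, against 0.03 over all genes tested. The survival gene Bcl2 rose from 11.9 ± 2.09 to 23.4 ± 5.08 CPM (0.97 ± 0.18, edgeR adjusted p = 0.00196). The gene of its death-promoting relative Bax fell from 121 ± 9.49 to 85 ± 11.6 CPM (-0.51 ± 0.10, edgeR adjusted p = 0.00287). Ctnnb1, which encodes beta-catenin, a substrate of GSK3, fell from 271 ± 20.8 to 173 ± 23.0 CPM (-0.65 ± 0.10, edgeR adjusted p = 0.000512). Map1lc3b, an ATG8 gene, rose by 0.22 ± 0.08 (edgeR adjusted p = 0.0465), a call that was lost with the low-count filter left off and in 7 of the 10 fits that left out 1 library. Gabarapl2, whose protein binds GIMAP6, had 0.24 ± 0.11 (edgeR adjusted p = 0.131), and Gsk3b had 0.20 ± 0.09 (edgeR adjusted p = 0.115). With the replicate block, Mcl1 (0.57, adjusted p = 3.07e-06) and Bcl2l11 (0.41, adjusted p = 0.00586) passed as well.

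Because GIMAP genes are highly expressed in T cells, NK cells, mature B cells and endothelium, markers of these cells were read beside the members. The libraries carried the B-progenitor markers, which summed to 13226 to 15516 CPM in GFP high, against 10326 to 11764 CPM in GFP low. Of these 12 markers 4 rose and 1 fell, while the fit with the replicate block called 10 higher and 1 lower. Among the T-cell markers, the genes of the CD3 complex were at or near 0, with Cd3e and Cd3g at 0 to 2 counts per library, Cd3d at 0 to 8 and Cd8a and Bcl11b at 0 in all libraries. Of 10 T-cell markers 3 were tested and 0 passed in edgeR, in edgeR with the replicate block and in DESeq2, with 1 at an unadjusted p under 0.05. Those 3 had positive fold changes, Lat at 0.50 ± 0.20 (101 to 300 counts, edgeR adjusted p = 0.0811, and 0.0503 with the replicate block), Cd28 at 0.94 ± 0.85 and Cd5 at 0.56 ± 0.36. The T-cell sum was 15.8 to 26.9 CPM in GFP high and 13.3 to 16.9 CPM in GFP low. Of 8 NK-cell markers Eomes and Gzma were at 0 and Ncr1 at 0 to 2 counts, while Klrb1c rose (1.36 ± 0.26, edgeR adjusted p = 0.00227). The NK-cell sum was 188 to 329 CPM against 66.5 to 167 CPM, and with the replicate block Klrd1 fell (-1.34, adjusted p = 0.0171). Of 6 endothelial markers Pecam1, which leukocytes also express, rose (0.81 ± 0.09, edgeR adjusted p = 4.46e-05), and Cdh5 had 0 to 11 counts. The endothelial sum was 254 to 305 CPM in GFP high and 141 to 177 CPM in GFP low. Of 8 mature B-cell markers 7 were tested and 3 rose, Ccr7 (1.63 ± 0.16), Cxcr5 (1.81 ± 0.43) and Ighd (0.90 ± 0.18). The mature B-cell sum was 955 to 1483 CPM against 829 to 1211 CPM, and Ms4a1 had -0.42 ± 0.40. The 8 myeloid markers summed to 82.0 to 123 CPM against 45.9 to 89.8 CPM, with Csf1r higher (3 higher with the replicate block). The 5 erythroid markers summed to 5.45 to 15 CPM against 2.99 to 7.56 CPM, with 0 called in edgeR, 1 at an unadjusted p under 0.05, 1 with the replicate block and 1 in DESeq2. The part of the T-cell, NK-cell, endothelial, mature B-cell, myeloid and erythroid signals in the level of the members was not tested.

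The labels were read against the proliferation gene Mki67, which fell to 178 ± 60.7 CPM in GFP high from 406 ± 136 CPM (SD, n = 5 each) in GFP low (edgeR adjusted p = 0.00664). Since no label ties a library to its own animal, the p-values describe the spread among these samples, which may be technical. Libraries numbered 3 had 9 and 2 counts on the Y chromosome and the other 8 had 309 to 2654. Without both libraries numbered 3, the same number of members, 6, passed as higher. In that fit 926 of all genes were called higher and 1367 lower, against 1538 and 1973 with all libraries.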

How the data were processed

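Per the labels' protocols, polyadenylated RNA was extracted with a micro-scale kit and made into libraries with a low-input amplification kit. The deposited values are raw read counts per Ensembl gene. The submitters' processing notes name mm10, STAR, featureCounts and DESeq2, without version or role. Symbols, positions and exon lengths came from GENCODE M21 (GRCm38), which matched 99.8% of 55573 identifiers. Identifiers without a match held 0.00325% of counts.

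Libraries were grouped and numbered by their titles. The test was that of edgeR 4.0.16, run in R 4.3.3 (filterByExpr, TMM, quasi-likelihood test, group as the only term, Benjamini-Hochberg over 12772 genes). SE is the log2 fold change divided by the square root of F. CPM used TMM-scaled sizes, and log2 CPM a prior count of 2. A floor of 3 counts corresponds to 0.203 to 0.291 CPM and covers counting error only. The common biological coefficient of variation was 0.249. In simulated counts for these 12772 genes the test recovered 28.4%, 73.1% and 90.9% of genes changed 1.5-fold, 2-fold and 4-fold. The lowest chi-square per gene between 2 libraries of a group was 6.92, so none was counted as a repeat of another.

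Same-numbered libraries were taken as pairs, since every pair's deviations correlated above 0.1. Alternatives were the replicate block, DESeq2 1.42.0, RLE size factors, no filter, each library left out, libraries 1 to 3 alone, and libraries 4 and 5 alone. Leaving out both libraries numbered 3 and a second gene length were added after seeing the data. Coding sequences were aligned globally with Biopython 1.88. Protein sequences were not used here. Members, lists and alternatives were chosen with earlier results of these data known. Named genes were the members, the 2 linked genes with the largest called change each way, called or nearest flanking genes, and the 5 genes most like the members by each of 2 measures. Further genes of these lists were named with their values in view.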

Additional observations from a re-analysis of the deposited data

Results flagged for a closer look

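In 62 groups of 5 libraries (members, linked and flanking genes that were tested, in each sort group), 2 values lay far from the other 4, measured as the gap to the nearest library over the whole range. Chance alone flags about 1 in 20 such groups. Gimap5 in GFP low library 4 had 65.0 CPM, where the other 4 had 44.1 to 48.9 CPM. Without that library the log2 fold change of Gimap5 was 1.28. Zfp775 in GFP high library 3 had 8.42 CPM, where the other 4 had 14.8 to 17.2 CPM, and without that library Zfp775 passed the threshold.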

How the results depend on the processing

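The 6 called members passed in the same direction under each of 17 alternatives, as did the count of 6 with single libraries left out (6 to 6 higher, 0 to 0 lower). These are refits of the same libraries and of the contrast already in view, so they describe the dependence on processing and add no support. The share of all genes that passed in each alternative was not computed. Their log2 fold changes ranged from 1.29 to 2.03 for Gimap4, 1.33 to 1.54 for Gimap3, 0.82 to 1.41 for Gimap5, 0.65 to 1.14 for Gimap6, 0.94 to 1.02 for Gimap8 and 0.72 to 0.92 for Gimap9. Gimap1 passed in 3 alternatives (the replicate block, libraries 1 to 3 alone, libraries 4 and 5 alone). Gimap7 ranged from -0.44 to 0.08 with single libraries left out, turning positive when library 2 of GFP high (0.01) or library 5 of GFP low (0.08) was missing. The members' median was 0.77 in libraries 4 and 5 alone and 0.93 to 1.03 with single libraries left out. Over all genes, 2645 were higher with the replicate block (1538 without it) and 926 without both libraries numbered 3. The range with single libraries left out was 1189 to 1479 higher and 1617 to 1940 lower. Flanking genes called were 3 with the replicate block (Tmem176b, Gimap1os and Zfp775), 2 by DESeq2, 2 in libraries 1 to 3 alone, 2 without both libraries numbered 3, and 1 to 2 with single libraries left out. Linked genes called were 3 to 5 with single libraries left out, and Bcl2, Bax and Ctnnb1 passed in each of the 17 alternatives. The replicate block changed no other call among members, linked and flanking genes than those of Gimap1, Mcl1, Bcl2l11, Gimap1os and Zfp775. The causes were not tested.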
